A study of Mus musculus with 8 samples.

Results

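The genes described here encode the core protein families of pre-mRNA splicing: the SR proteins (symbols starting with Srsf), the heterogeneous nuclear ribonucleoproteins or hnRNPs (Hnrnp), the Sm and other proteins of the small nuclear ribonucleoproteins or snRNPs (Snrp), and the SF3a and SF3b subunits of the U2 snRNP (Sf3a, Sf3b). They were chosen by symbol alone, without pseudogenes, from the probe sets that the array annotation pairs with exactly 1 gene, and the probe set with the highest mean over all arrays was used for each gene. This gave 46 genes of 22180, namely 18 hnRNPs, 10 SR proteins, 9 Sm or snRNP proteins and 9 SF3a or SF3b subunits. Another 5 genes of these families, Hnrnpa1, Hnrnph3, Snrpa, Snrpf and Snrpn, lay only on probe sets shared with other genes, and Srsf7 was paired with no probe set, so these 6 were not analysed here.

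RNA came from 4 Fzd9 KO and 4 Fzd9 WT mice, young adults of both sexes on a C57Bl/6 background, with 1 Affymetrix Mouse Gene ST array per mouse. Fzd9 KO mice lack the Wnt receptor Frizzled 9. All mice of both genotypes carried MycER, a Myc protein that tamoxifen switches on, driven in pancreatic β-cells by the insulin promoter, and BclXL, a survival protein driven by the rat insulin promoter RIP7, and all received tamoxifen for 3 d. No group without Myc activation was among these arrays, so every value compares genotypes with Myc active, and Fzd9 was absent from the whole animal and not from β-cells alone. The study's methods describe a pool of hand-picked islets from each mouse, whereas the sample labels call the tissue insulinoma.

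In splicing, snRNPs mark the ends of introns and assemble into the spliceosome that cuts them out. Sm proteins form a ring on the RNA of most snRNPs, and SF3a and SF3b hold the U2 snRNP on the branch point. SR proteins mostly promote the use of the exons they bind, and hnRNPs often oppose it. Genes of these families are among those that Myc is known to raise in tumors, and Myc with its partner Max binds the DNA letters CACGTG, called an E-box.

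The promoters of the splicing factor genes were therefore searched for this motif. Of the 46 genes, 40 matched an entry in the RefSeq promoter table (build GRCm38.p6), which runs from 250 bases before to 50 bases after each transcription start. CACGTG, which reads the same on both strands, was present in 5 of the 40 (12.5%) and in 2187 of 27025 genes with an entry (8.09%). All 5 were hnRNP genes. They are shown because they place the Myc motif beside the values given below, as windows of 30 bases, 5′ to 3′ on the strand of the gene, with the motif in capitals.
Hnrnpa3, chr2:75659229-75659258, plus strand, motif 18 bases before the start: cggatagcacatCACGTGgtgactggcccc
Hnrnpd, chr5:99978953-99978982, minus strand, motif 32 bases before the start: gcgctccggagcCACGTGaccgggacgcgc
Hnrnpf, chr6:117907713-117907742, plus strand, motif 79 bases before the start: cgagcgggcgctCACGTGgcccgaggcgcc
Hnrnpm, chr17:33685428-33685457, minus strand, motif 14 bases after the start: gtcgttcggggtCACGTGagcgcgcaggcg
Hnrnph2, chrX:134601182-134601211, plus strand, motif 16 bases after the start: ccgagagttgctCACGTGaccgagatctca
A match describes these letters only, and binding of Myc was not measured on these arrays.

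None of the 46 splicing factor genes passed the threshold used in the study (fold change 1.2 or more, p below 0.05 before adjustment) in either direction by limma. Over all 41345 probe sets, 658 were lower in Fzd9 KO (1.59%) and 786 higher (1.9%). At an unadjusted p under 0.05 alone the count was 0 of 46 by limma, against 1444 of all probe sets (3.49%). At p and fold change together, the methods' t-test called 1 member, Hnrnpll. No probe set of the array reached an adjusted p under 0.05, and the adjusted p of limma was 1.00 for each of the 46 genes. The median log2 fold change of the 46 genes was -0.01, beside 0.02 for all probe sets and -0.06 for the 5148 other genes with a mean level between 4.91 and 8.26, the middle range of the splicing factors. Of those 5148 genes, 97 had an unadjusted p under 0.05 by limma, a smaller share than over all probe sets. Past the threshold, 80 of them were lower in Fzd9 KO and 17 higher. Of the 46 log2 fold changes, 24 were below 0 and 22 above, and they ran between -0.44 and 0.36. Srsf7, which is not among the 46, was reported by the study as significantly lower in Fzd9 KO islets by qRT-PCR after 3 d of tamoxifen.

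The error of each gene sets how much these values can show. The median standard error of the log2 fold change was 0.23, and the number of arrays limits the precision. For 41 of the 46 genes the 95% interval of limma excluded a 2-fold change in both directions, and for 14 it excluded a 1.5-fold change in both. The other 5 genes, Hnrnpf, Hnrnph2, Snrpd1, Snrpd3 and Sf3b6, had intervals that reached a 2-fold rise, and that of Snrpd1 also reached a 2-fold fall. These are bulk RNA values, in which fewer cells of a type and less RNA per cell cannot be told apart.

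**Figure D1:**
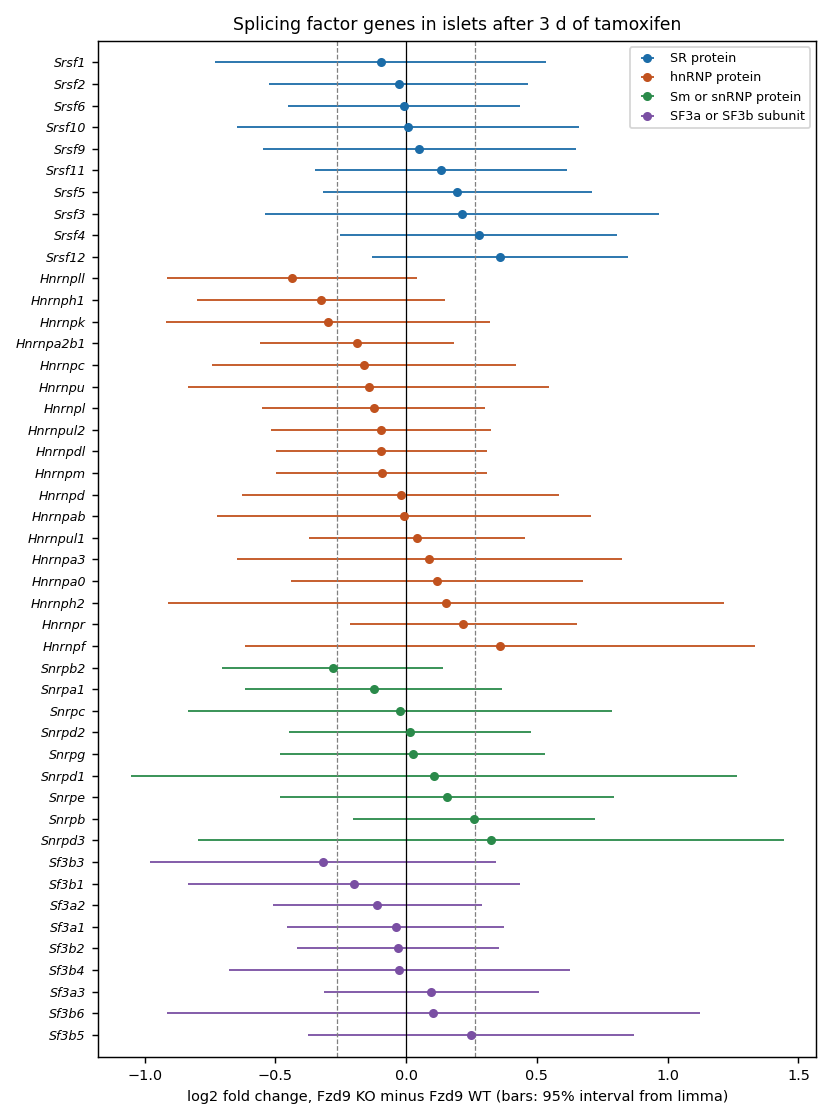
Log2 fold change of the 46 splicing factor genes, Fzd9 KO minus Fzd9 WT (x axis, log2 units), 1 gene per line in 4 role groups, with 95% intervals from limma as bars and dashed lines at a fold change of 1.2. Points run between -0.44 for Hnrnpll and 0.36 for Hnrnpf, and every interval crosses 0.

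By role, the median log2 fold change was -0.09 over the 18 hnRNPs, with 12 below 0, and -0.03 over the 9 SF3a and SF3b subunits, with 6 below 0. It was 0.03 over the 9 Sm and snRNP proteins, with 3 below 0, and 0.09 over the 10 SR proteins, also with 3 below 0. No gene of any role group passed the threshold, and the difference between the groups was not tested.

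Among the hnRNPs, Hnrnpll came closest to the threshold. Hnrnpll, a paralog of Hnrnpl known for splicing of CD45 in T cells, had log2 levels of 5.71, 6.19, 5.98 and 6.21 in Fzd9 KO mice 1 to 4, against 6.49, 6.56, 6.08 and 6.70 in Fzd9 WT mice 1 to 4. WT mouse 3 lay below KO mice 2 and 4, so the genotypes overlapped. The log2 fold change was -0.44 ± 0.21 (SE, n = 4 each), with a 95% interval of -0.91 to 0.04 and an adjusted p = 1.00 by limma. Without WT mouse 3 it was -0.56 and passed the threshold, at an adjusted p = 0.920 by limma. Its paralog Hnrnpl, which binds CA-rich RNA, was the brightest hnRNP, with 8.65, 8.82, 8.88 and 8.86 in KO mice and 8.67, 8.89, 8.93 and 9.23 in WT mice, a log2 fold change of -0.12 ± 0.19.

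On the probe set used for each gene, Hnrnpa2b1 was the only member whose genotypes did not overlap. Its gene product represses exons, and with Hnrnpa1 and Ptbp1 it is known in human tumor cells to set the choice between the exons of pyruvate kinase M. KO mice had log2 levels of 6.88, 7.05, 6.95 and 6.94, and WT mice had 7.17, 7.10, 7.16 and 7.15. All 4 KO mice lay below all 4 WT mice, as for 438 of all probe sets (1.06%). The gap between the means was small, -0.19 ± 0.17 on the log2 scale, with a 95% interval of -0.56 to 0.18. Limma shares the spread of all probe sets, and here the gene's own SD was 0.07 in KO mice and 0.03 in WT mice.

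Hnrnpk, which binds C-rich RNA and DNA, gave different values on its 3 probe sets. The brightest had 8.26, 8.73, 8.49 and 8.44 in KO mice, against 9.17, 8.98, 7.98 and 8.99 in WT mice, with a log2 fold change of -0.30 ± 0.28. WT mouse 3 was the lowest of all 8 mice there and the other 3 WT mice were the highest. Without that mouse the log2 fold change was -0.56 and passed the threshold, at an adjusted p = 0.920 by limma. A second probe set fell by 0.69 ± 0.21 on the log2 scale (limma adjusted p = 1.00), with 6.69, 7.13, 7.14 and 6.94 in KO mice and 7.90, 7.90, 7.47 and 7.37 in WT mice, without overlap. It was the only one of the 61 probe sets of the 46 genes to pass the threshold. Over all probe sets, 1.59% were lower past the threshold, and 1.06% had all KO mice below all WT mice. The third had a log2 fold change of 0.24 ± 0.28, so the 3 probe sets did not share a sign. Of the 11 members with several probe sets, 7 had probe sets of both signs.

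Hnrnph1, a binder of G runs, had 6.59, 6.94, 6.51 and 7.07 in KO mice, against 7.39, 6.94, 7.15 and 6.92 in WT mice, a log2 fold change of -0.33 ± 0.21. KO mouse 4 lay above WT mice 2 and 4. For the related Hnrnph2, the dimmest hnRNP, the log2 fold change was 0.15 ± 0.48. The 5 genes with an E-box window had values of both signs, none past the threshold: beside Hnrnph2, Hnrnpa3 had 0.09 ± 0.33, Hnrnpd -0.02 ± 0.27, Hnrnpf 0.36 ± 0.44 and Hnrnpm -0.09 ± 0.18 on the log2 scale. The remaining hnRNPs had log2 fold changes between -0.16 for Hnrnpc and 0.22 for Hnrnpr.

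**Figure D2:**
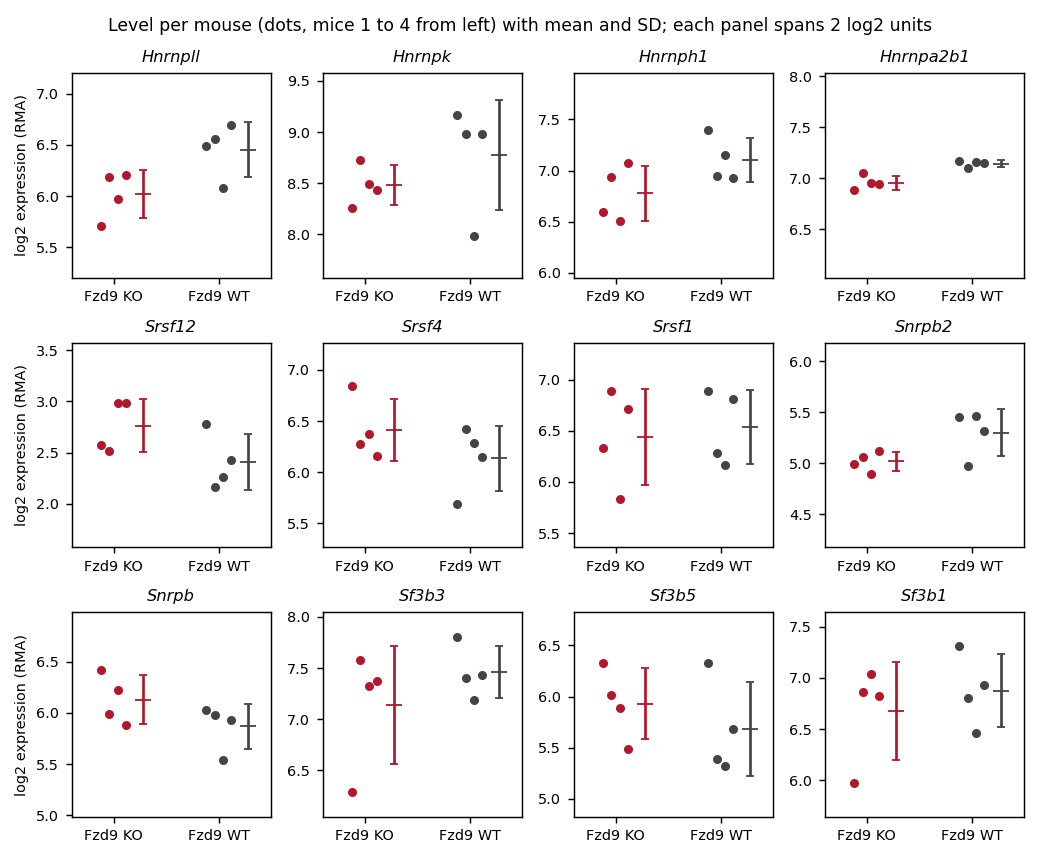
Log2 expression (RMA, y axis, each panel spanning 2 log2 units) of 12 splicing factor genes in the 4 Fzd9 KO mice (left, red) and 4 Fzd9 WT mice (right, grey), with a dot per mouse and the mean and SD beside the dots. Hnrnpa2b1 is the only panel without overlap, and the largest mean difference is that of Hnrnpll, -0.44.

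For the SR proteins, Srsf12 had the lowest p and Srsf1 the most negative value. Srsf12, an SR protein that in humans opposes splicing activation by other SR proteins, had 2.57, 2.52, 2.99 and 2.98 in KO mice and 2.78, 2.16, 2.26 and 2.43 in WT mice, a log2 fold change of 0.36 ± 0.22. These levels lay in the range of 1400 probe sets for olfactory and other nose receptors, used here as a gauge of background. Of those probe sets, 95% were under 3.52. Sf3b4 was the only other member below that level. Srsf4 had 6.84, 6.28, 6.37 and 6.16 in KO mice and 5.69, 6.42, 6.29 and 6.14 in WT mice, a log2 fold change of 0.28 ± 0.24. WT mouse 1 alone lay well under the others.

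Srsf1, which binds exonic enhancers and is known as a Myc target with transforming activity, had 6.33, 6.89, 5.83 and 6.71 in KO mice, against 6.89, 6.29, 6.17 and 6.81 in WT mice. The genotypes overlapped, with KO mouse 3 the lowest of the 8 mice, and the log2 fold change was -0.10 ± 0.28. Srsf2, another enhancer-binding SR protein, had a log2 fold change of -0.03 ± 0.22. Srsf5, the brightest of the SR group, had 9.13, 9.54, 9.29 and 9.63 in KO mice and 8.80, 9.56, 9.05 and 9.40 in WT mice, which gave 0.20 ± 0.23. The other 5 SR proteins had log2 fold changes between -0.01 for Srsf6 and 0.21 for Srsf3.

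In the Sm and snRNP group the lowest p belonged to Snrpb2, the B″ protein of the U2 snRNP. Its log2 levels were 4.99, 5.06, 4.90 and 5.12 in KO mice and 5.45, 4.97, 5.46 and 5.31 in WT mice, with a log2 fold change of -0.28 ± 0.19. WT mouse 2 was the mouse that overlapped with KO. Snrpb, which encodes the ring protein SmB, pointed the other way, with 6.42, 5.99, 6.22 and 5.88 in KO mice, against 6.03, 5.98, 5.54 and 5.93 in WT mice, and 0.26 ± 0.21 on the log2 scale. Snrpd2, the ring protein SmD2 and the brightest of the group, had group means of 9.51 ± 0.20 in KO mice and 9.50 ± 0.25 in WT mice (SD, n = 4 each).

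Among the SF3a and SF3b subunits, Sf3b1, the subunit that contacts the branch point and is often mutated in human leukemias, had 5.97, 6.86, 7.04 and 6.82 in KO mice, against 7.31, 6.81, 6.46 and 6.93 in WT mice, a log2 fold change of -0.20 ± 0.28. Sf3b3, a partner of Sf3b1 in the complex, had 6.29, 7.58, 7.32 and 7.37 in KO mice, against 7.80, 7.41, 7.19 and 7.44 in WT mice, and -0.32 ± 0.30. KO mouse 1 was the lowest of the 8 mice for both. Sf3b5, a small SF3b subunit, had 6.33, 6.01, 5.88 and 5.49 in KO mice and 6.33, 5.39, 5.32 and 5.69 in WT mice, a log2 fold change of 0.25 ± 0.28. Sf3b2, the brightest of these subunits, had a log2 fold change of -0.03 ± 0.17, and Sf3b4, the dimmest, -0.03 ± 0.29.

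For most of these genes, mice of the Fzd9 WT group differed more among themselves than mice of the KO group. The SD was larger in WT than in KO for 33 of the 46 genes (71.7%), beside 52.3% of all probe sets and 60.4% of the 5148 other genes of like level, and the median SD was 0.22 in KO mice and 0.33 in WT mice. WT mouse 1 was the highest of the 8 mice for 22 of the 46 genes (47.8%), beside 39.1% of genes of like level. WT mouse 3 was the lowest for 21 (45.7%), beside 28.8%. Both held at once for 14 genes (30.4%), beside 16.1% of genes of like level and 4.84% of all probe sets. These shares are descriptions, since genes of one array are not replicates.

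The counts by family were as follows, and their difference was not tested. Of the 36 members other than SR proteins, 21 had WT mouse 1 as the highest mouse, and 9 of the 18 hnRNPs had WT mouse 1 highest and WT mouse 3 lowest. Among the 10 SR proteins WT mouse 1 was the highest for 1 and the lowest for 4, and none showed both ends. Averaged over all 46 genes, the log2 level was 6.59, 6.65, 6.61 and 6.57 in KO mice 1 to 4, against 6.90, 6.55, 6.28 and 6.67 in WT mice 1 to 4.

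**Figure D3:**
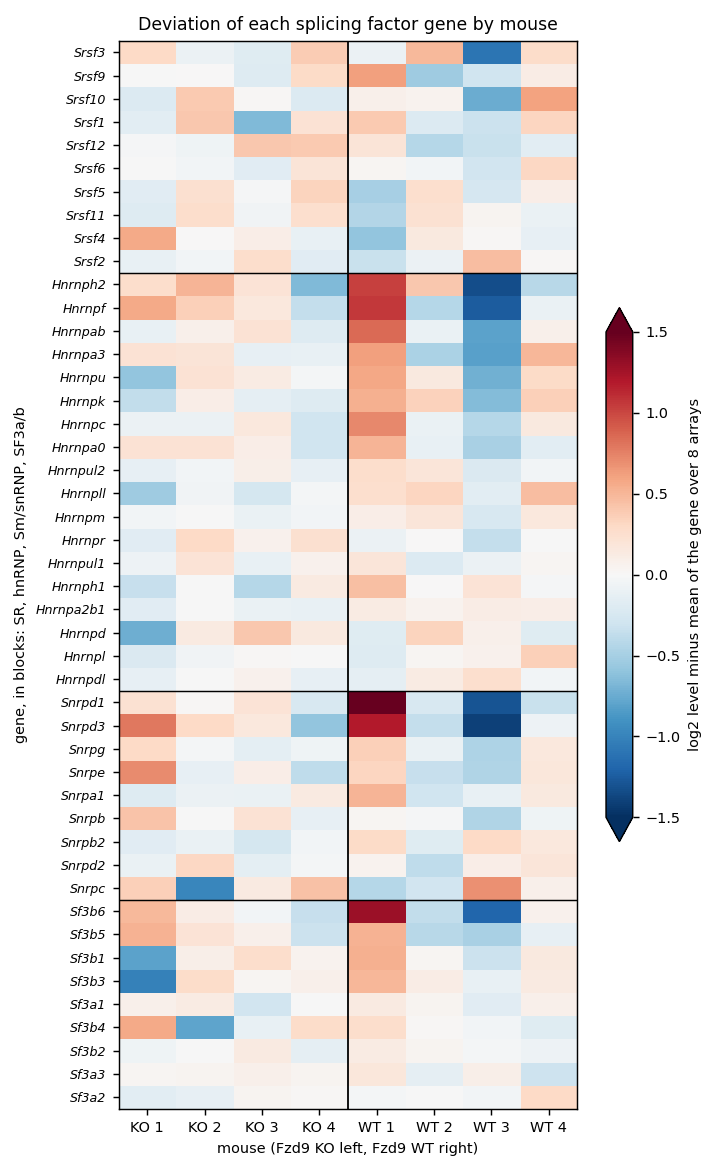
Log2 level of each of the 46 splicing factor genes minus its own mean over the 8 arrays (color, log2 units, red above and blue below), with the Fzd9 KO mice in the left 4 columns, the Fzd9 WT mice in the right 4, and the genes in 4 role blocks ordered by WT mouse 1 minus WT mouse 3. WT mouse 1 is the highest of the 8 mice for 22 genes and WT mouse 3 the lowest for 21, and no gene of the SR block at the top shows both.

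The same 5 genes that had the widest intervals carried this spread most. Their range over the 4 WT mice was above 2 log2 units, whereas the widest range of any other member was 1.65 for Hnrnpab, and over the KO mice no member ranged over more than 1.42. Snrpd1, the ring protein SmD1, had 5.04, 4.82, 5.01 and 4.57 in KO mice, against 6.47, 4.57, 3.51 and 4.47 in WT mice, so WT mouse 1 stood 2.96 log2 units above WT mouse 3. Snrpd3, the ring protein SmD3, had 8.31, 7.81, 7.68 and 6.92 in KO mice, against 8.70, 7.16, 6.12 and 7.44 in WT mice. Sf3b6, which binds the branch point together with Sf3b1, had 5.06, 4.70, 4.54 and 4.23 in KO mice, against 5.87, 4.21, 3.39 and 4.65 in WT mice.

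Hnrnpf and Hnrnph2 followed the same order at the ends. Hnrnpf, which binds G runs like its relatives of the H group, had 8.26, 8.04, 7.84 and 7.33 in KO mice, against 8.74, 7.27, 6.44 and 7.59 in WT mice. A second bright probe set of Hnrnpf differed from these values by at most 0.04 on any array, and its 3 dimmer probe sets had log2 fold changes between -0.25 and 0.03. Hnrnph2 had 5.28, 5.53, 5.22 and 4.35 in KO mice, against 6.04, 5.43, 3.69 and 4.61 in WT mice. In all 5 genes WT mouse 1 was the highest of the 8 mice and WT mouse 3 the lowest, with KO mice between them. Without WT mouse 1, Hnrnpf was higher in KO by 0.77 and Snrpd1 by 0.68 on the log2 scale, and both passed the threshold, at an adjusted p = 1.00 by limma. Snrpc, a protein of the U1 snRNP, and Srsf2 ran the other way among WT mice, with WT mouse 1 below WT mouse 3 by 1.12 and 0.80.

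**Figure D4:**
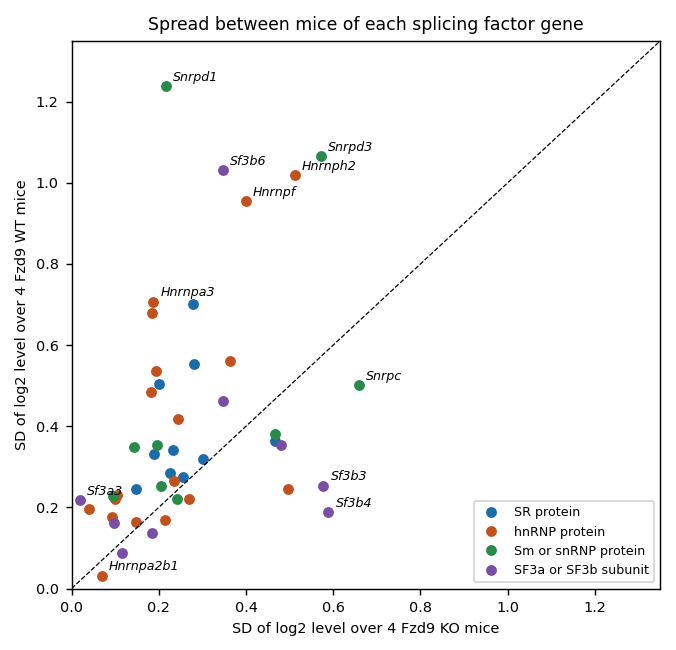
SD of the log2 level over the 4 Fzd9 KO mice (x axis) and over the 4 Fzd9 WT mice (y axis) for the 46 splicing factor genes, 1 point per gene colored by role, with a dashed line of equal SD. For 33 genes the point lies above the line, and Snrpd1, Snrpd3, Sf3b6, Hnrnph2 and Hnrnpf stand apart at the top.

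The arrays as deposited also differed as a whole. The SD of log2 levels over all probe sets was 1.87 for WT mouse 1, the largest, and 1.67 for WT mouse 3, the smallest, and array medians ran between 2.90 and 3.17. After quantile normalization, which gives all arrays one distribution, WT mouse 1 was the highest for 14 of the 46 genes (30.4%, beside 25.6% of genes of like level) and WT mouse 3 the lowest for 16 (34.8%, beside 18.1%). WT mouse 1 was then also the lowest for 10 (21.7%, beside 15.5%) and WT mouse 3 the highest for 7 (15.2%, beside 16.4%). WT mouse 1 lay above WT mouse 3 in 26 of the 46 genes (56.5%, beside 54.5%), against 36 (78.3%, beside 73.6%) as deposited. WT mouse 1 was highest and WT mouse 3 lowest at once for 10 genes (21.7%, beside 7.93%), against 14 (30.4%, beside 16.1%) as deposited. After quantile normalization the SD was larger in WT than in KO for 32 genes (69.6%, beside 60.2%). The 5 wide genes kept gaps between WT mouse 1 and WT mouse 3 of 1.95 for Hnrnpf to 2.82 for Snrpd1. Mean log2 levels of 21 measured of 24 listed acinar cell markers, genes of the enzyme-secreting pancreas around islets, were 6.22 in KO mouse 1 and 5.22 in WT mouse 3, against 3.59 to 4.46 in the other 6 mice. As deposited, KO mouse 1 was the lowest of the 8 mice for 7 of the 46 genes (15.2%, beside 34.4% of genes of like level). These were Hnrnpa2b1, Hnrnpd, Hnrnpl, Hnrnpll, Sf3a2, Sf3b1 and Sf3b3. KO mouse 1 was the highest for 4 (8.70%, beside 4.56%). WT mouse 3 was the lowest for 21 (45.7%, beside 28.8%) and the highest for 4 (8.70%, beside 6.20%). The mean of 11 measured of 12 listed β-cell markers lay between 7.11 and 7.37 in KO mice and between 7.01 and 7.88 in WT mice, the highest being WT mouse 1. The part of these differences in the values of the splicing factors was not tested.

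The mouse's sex could be read from Xist, the RNA of the inactive X chromosome, and was balanced. Xist was at 10.4 to 10.6 in mice 2 and 4 and at 3.32 to 4.01 in mice 1 and 3 of both genotypes. Within the mice with high Xist the median difference of the 46 genes between KO and WT was -0.03, and within those with low Xist it was 0.01, with 2 mice of each genotype in each class. The interaction of genotype and Xist class had an unadjusted p under 0.05 by limma for 0 of the 46 genes, against 1269 of all probe sets. Fzd9 itself was at 2.53 ± 0.35 in KO mice and 2.88 ± 0.67 in WT mice (SD, n = 4 each), low in both, and its log2 fold change of -0.35 ± 0.34 did not pass the threshold.

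Splicing genes outside these symbols were looked at through 6 lists with 179 genes, of which 168 were measured. Past the threshold, 3 were lower in KO (1.79%), 1 was higher (0.595%) and 164 did not pass, so the shares were close to or below those of all probe sets. Among 31 other snRNP proteins 1 rose, and of 15 branch point and 3′ splice site factors and 26 SR-related proteins and SR kinases none passed. In 27 Prp19 complex and catalytic step factors, 49 other splicing regulators and 20 snRNP assembly proteins 1 gene fell in each list.

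Snrnp48, a protein of the minor spliceosome, rose, with 5.89, 6.00, 6.09 and 6.17 in KO mice, against 5.34, 5.60, 5.64 and 5.52 in WT mice, without overlap (log2 fold change 0.52 ± 0.18, limma adjusted p = 1.00). Raly, an hnRNP-like RNA-binding protein, fell, with 5.65, 5.83, 5.61 and 5.90 in KO mice, against 6.43, 6.38, 6.00 and 6.33 in WT mice (-0.53 ± 0.19). Dhx8, the helicase that releases spliced mRNA from the spliceosome, fell by 0.44 ± 0.18, with 5.16, 5.26, 5.04 and 5.29 in KO mice, against 5.73, 5.52, 5.51 and 5.74 in WT mice. The genotypes did not overlap for Raly and Dhx8 either. Over all 41345 probe sets, all KO mice lay below all WT mice for 438 (1.06%) and above them for 537. Snrnp48, Raly and Dhx8 were named for passing the threshold, which makes a lack of overlap more likely.

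Wdr77, which works with the methylase Prmt5 in modifying Sm proteins before the ring is built, had 5.75, 6.59, 6.54 and 6.71 in KO mice, against 6.84, 6.84, 6.99 and 7.24 in WT mice, a fall of 0.58 ± 0.25 on the log2 scale. KO mouse 1 stood lowest. Prmt5 itself did not pass, with -0.22 ± 0.22, nor did Ptbp1, which represses exons next to pyrimidine tracts, with -0.03 ± 0.18. In the lists without a call the lowest p values were those of U2af1, which recognizes the 3′ splice site, with -0.63 ± 0.36, and Tra2b, an SR-related exon activator, with -0.27 ± 0.18.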

How the data were processed

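Total RNA of 8 mice, 4 Fzd9 KO and 4 Fzd9 WT, was measured on 1 Affymetrix Mouse Gene ST array each. The deposited log2 values came from RMA run by the authors, with Partek also listed in the submitters' processing notes (versions not given in the sources used here), and no further normalization was added. RMA shares probe effects across arrays and compresses differences of dim probe sets. All 41345 probe sets were tested without a filter. The platform annotation pairs 23521 of them with 1 gene, 1820 with several and 16004 with none, and symbols were updated through Entrez ID for 23328.

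Fzd9 KO was compared with Fzd9 WT by limma (version 3.58.1, R 4.3.3) with Benjamini-Hochberg adjustment over all probe sets. The words rise and fall are kept for genes past the study's threshold, a fold change of 1.2 or more with p below 0.05 before adjustment. Errors beside fold changes are limma's standard errors. The steps were tested on simulated data. The mice are separate animals, and mouse numbers recur in both genotypes. No label pairs them, and same-numbered mice had the same Xist class. The deviations of same-numbered mice from their group means correlated at -0.10, 0.02, 0.07 and 0.24, which cannot settle whether the mice were matched.

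The splicing factors and the lists were chosen with earlier results of these data known. Genes were named by rule: in each role group the 3 with the lowest p, the brightest and the dimmest, those without overlap between genotypes, 8 with a known link to Myc, and in the other lists those past the threshold, the lowest p of each, Ptbp1 and Prmt5. Brightness depends on the probes of a set, so brightest and dimmest do not order the genes by expression. Srsf7 and Hnrnpa1, which the rule also names, were not analysed here. Members named for their range between mice or as ends of a range, and those with an E-box, were chosen after their values or promoters were seen. The alternatives were 3 other scalings, other limma settings, a t-test with pooled variance, filters on probe sets and other choices of probe set. They also held the mouse number as a block, Xist class as a term (chosen after seeing the data), and leaving out mice. The figures were drawn with matplotlib 3.10.9 under Python 3.11.15.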

Additional observations from a re-analysis of the deposited data

Results flagged for a closer look

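Of 48 groups of 4 mice (24 named splicing factors in each genotype), 1 held a mouse far from the others, where 2.4 are due by chance. Hnrnpk, on its brightest probe set, was at 7.98 in Fzd9 WT mouse 3, against 8.98 to 9.17 in the other 3 WT mice. The interaction of genotype and Xist class reached an unadjusted p under 0.05 by limma for 0 of the 46 splicing factors.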

How the results depend on the processing

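In 15 of 22 alternatives no splicing factor passed the threshold. The count of those lower in KO was 1 with the t-test, 1 with limma array weights and 1 with Xist class as a term. Each time the gene was Hnrnpll (-0.44, -0.46 and -0.44 on the log2 scale). The count was 1 with the probe set of largest spread (Hnrnpk, -0.69). Without WT mouse 3 and KO mouse 1 together it was 2 (Hnrnpk, -0.49, and Hnrnpll, -0.46). Leaving out 1 mouse at a time gave 0 to 2 lower and 0 to 2 higher, the highest counts being without WT mouse 3 (Hnrnpk and Hnrnpll lower) and without WT mouse 1 (Hnrnpf and Snrpd1 higher). The cause was not tested. The lowest adjusted p of a member was 0.92, with WT mouse 3 left out. Their median log2 fold change lay between -0.11 and 0.05 with 1 mouse left out, was -0.13 without both mice above, and was 0.03, -0.04 and 0.03 after quantile normalization, median centring and cyclic loess. Of 1010 values of members over the 22 alternatives, 97 had the other sign than in the main comparison, where none was past the threshold. The t-test, the filters on probe sets, the mouse block, the Xist term and some limma settings keep every member's fold change. The sign could not differ there, nor could it for the 35 members with 1 probe set under other choices of probe set. The share of 97 in 1010 therefore does not gauge how stable the signs were. Over all probe sets, 382 were lower and 248 higher among bright probe sets only, and 378 and 392 among those with 1 gene only, where fewer were tested. With the mouse number as a replicate block, 0 splicing factors were lower and 0 higher, and the median was -0.01. Of 4 KO mice, 1 correlated best with the WT mouse of its number, which cannot settle whether the mice were matched. With 4 mice per genotype, the calls of Hnrnpf, Snrpd1, Hnrnpk and Hnrnpll changed with 1 mouse left out. The probe sets of 2 members, Srsf12 and Sf3b4, lay at the level of the nose receptor probe sets.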
